A study of Mus musculus with 6 samples.

Results

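The 10 genes described here supply and load peptides onto MHC class I molecules. They are the classical heavy chains H2-K1 and H2-D1, the light chain B2m, the peptide transporter subunits Tap1 and Tap2, the loading protein Tapbp, the immunoproteasome subunits Psmb8, Psmb9 and Psmb10, and the transactivator Nlrc5. They were chosen by role, with earlier results of these data known, and all 10 had a row among the 38924 rows of the deposited table. RNA came from marrow of C57BL/6 mice given transduced mouse marrow, and the cells had been sorted as GFP-positive, negative for lineage markers and positive for the progenitor receptor c-kit. Leukemia libraries came from recipients of marrow carrying Evi1-GFP at 6 months, preleukemia libraries from recipients of marrow carrying Evi1-GFP at 4 weeks, and mock libraries from recipients of marrow carrying GFP at 4 weeks, with 2 libraries in each group. Transduction, transplantation and the sort were common to the 3 groups. Evi1 came from a transferred construct whose promoter the labels do not give, and the age of the mice is not given either. No mock library at 6 months was analysed here, so time and leukemia cannot be told apart. Whether a group's libraries represent different mice is not stated. A p-value here reflects how far these libraries vary, and that variation may be technical.

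MHC class I molecules show peptides from the cell's own proteins to cytotoxic T cells, and cells that lose them can be attacked by natural killer cells. Proteasomes cut the proteins, and in immune cells the immunoproteasome subunits replace the constitutive catalytic subunits. The heterodimer of Tap1 and Tap2 pumps the peptides into the endoplasmic reticulum, where tapasin (Tapbp) links the transporter to heavy chains bound to beta-2 microglobulin (B2m) and favours tightly bound peptides. Nlrc5 is a nuclear protein that activates class I genes through conserved promoter elements, and interferons raise most of these genes in many cell types. In C57BL/6 mice H2-K1 and H2-D1 encode the Kb and Db molecules.

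The stretches upstream of 5 members are shown because they hold letters of the elements through which class I genes are known to be controlled. They are RefSeq sequences on GRCm38.p6, each ending at the base before a RefSeq start (the most downstream one where a gene has several). Of the 10 members 8 had such a window, and Tap2 and Nlrc5 are named only. H2-K1 is shown on the minus strand of chr17:34000334-34000583, H2-D1 on the plus strand of chr17:35262844-35263093, and B2m on the plus strand of chr2:122147437-122147686. Tap1 and Psmb9 point away from each other, and the 225 bases between their starts, chr17:34187331-34187555, are given on the plus strand, that of Tap1. Capitals mark matches on either strand to AANNGAAA (the core of sites for interferon regulatory factors), GGG and CC with 5 bases between them (a relaxed kappa B site), TGACG (the core of the X2 element) and ATTGG (the Y box). Kappa B matches that overlap one another run together.
H2-K1: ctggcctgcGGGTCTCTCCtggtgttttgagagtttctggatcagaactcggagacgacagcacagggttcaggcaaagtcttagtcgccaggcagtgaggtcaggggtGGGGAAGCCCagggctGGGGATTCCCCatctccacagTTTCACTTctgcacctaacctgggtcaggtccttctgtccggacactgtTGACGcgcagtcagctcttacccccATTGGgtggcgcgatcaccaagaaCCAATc
H2-D1: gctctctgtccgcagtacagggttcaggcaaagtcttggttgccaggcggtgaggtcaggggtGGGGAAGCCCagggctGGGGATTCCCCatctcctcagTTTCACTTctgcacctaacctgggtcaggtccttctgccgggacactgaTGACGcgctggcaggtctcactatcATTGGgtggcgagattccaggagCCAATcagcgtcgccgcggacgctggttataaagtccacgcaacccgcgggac
B2m: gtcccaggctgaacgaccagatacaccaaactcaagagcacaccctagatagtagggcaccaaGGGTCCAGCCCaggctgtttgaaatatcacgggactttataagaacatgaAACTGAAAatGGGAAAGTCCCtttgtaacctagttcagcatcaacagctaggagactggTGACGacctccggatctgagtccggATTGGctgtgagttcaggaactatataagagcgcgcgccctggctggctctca
Tap1 and Psmb9: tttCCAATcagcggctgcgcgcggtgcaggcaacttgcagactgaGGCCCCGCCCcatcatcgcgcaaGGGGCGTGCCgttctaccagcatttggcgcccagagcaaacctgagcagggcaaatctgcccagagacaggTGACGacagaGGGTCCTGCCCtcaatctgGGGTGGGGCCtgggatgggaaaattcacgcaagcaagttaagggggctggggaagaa
The windows of H2-K1 and H2-D1 held the 4 motifs in the same order and were identical at 169 of 204 bases aligned without gaps (82.8%). The B2m window also held all 4, as did 135 of 27025 promoters of the same length (0.5%). Taken singly, the interferon regulatory factor core was in 21.7% of all promoters, the kappa B letters in 45.4%, TGACG in 17.5% and ATTGG in 34%. The windows of Tap1 and Psmb9 held 3 of the 4 motifs, that of Tapbp held ATTGG alone, and those of Psmb8 and Psmb10 held none of the 4. A match is a description of letters, and binding was not measured.

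Levels are given in RPKM, reads scaled to transcript length and library size. The implied library totals were 16919600 to 21642900 reads. Groups were compared on the scale of log2(RPKM + 1) with limma over 10958 tested genes, and a gene was called at a Benjamini-Hochberg adjusted p under 0.05. Mecom, the gene of Evi1, had 61.7 and 71.5 RPKM in leukemia libraries and 78.0 and 80.1 in preleukemia libraries, against 0.774 and 0.805 in mock libraries. Kit, which encodes c-kit, had 49.3 and 46.8 RPKM in leukemia libraries and 60.0 and 56.9 in preleukemia libraries, against 69.2 and 57.7 in mock libraries. Of 10 listed markers of the gate and of progenitors, Kit among them, 7 fell and 1 (Mecom) rose in leukemia against mock. Of all tested genes 13.5% fell and 12.1% rose there, and the median log2 fold change of the markers was -0.86. In leukemia against preleukemia 6 of them fell and 1 (Cd34) rose, beside 13.0% and 5.27%, with a median of -1.11. In preleukemia against mock 1 fell and 3 rose, Mecom among them, beside 6.02% and 13.5%. Evi1 was the transferred gene, so the rises of Mecom against mock follow from the design. Hlf, a transcription factor of stem cells, was at 0 in both leukemia libraries. The 7 falls against mock became 3 without either leukemia library and 4 without preleukemia library 1. The T cell genes Cd3d, Cd3e, Cd3g and Cd2 and the B cell gene Ms4a1 were at or near 0 in every library. The median absolute log2 difference between the libraries of a group was 0.11 in leukemia, 0.11 in preleukemia and 0.22 in mock. With 2 libraries a group, groups that do not overlap are common, and the members are read against that background. Leukemia lay wholly above mock for 1 member and wholly below for 9, beside 30.0% and 35.5% of all genes (65.4% either way). Leukemia lay wholly above preleukemia for 0 members and below for 10, beside 24.7% and 46.0% (70.7% either way). Preleukemia lay wholly above mock for 3 members and below for 3, beside 37.2% and 25.5% (62.7% either way).

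**Figure D1:**
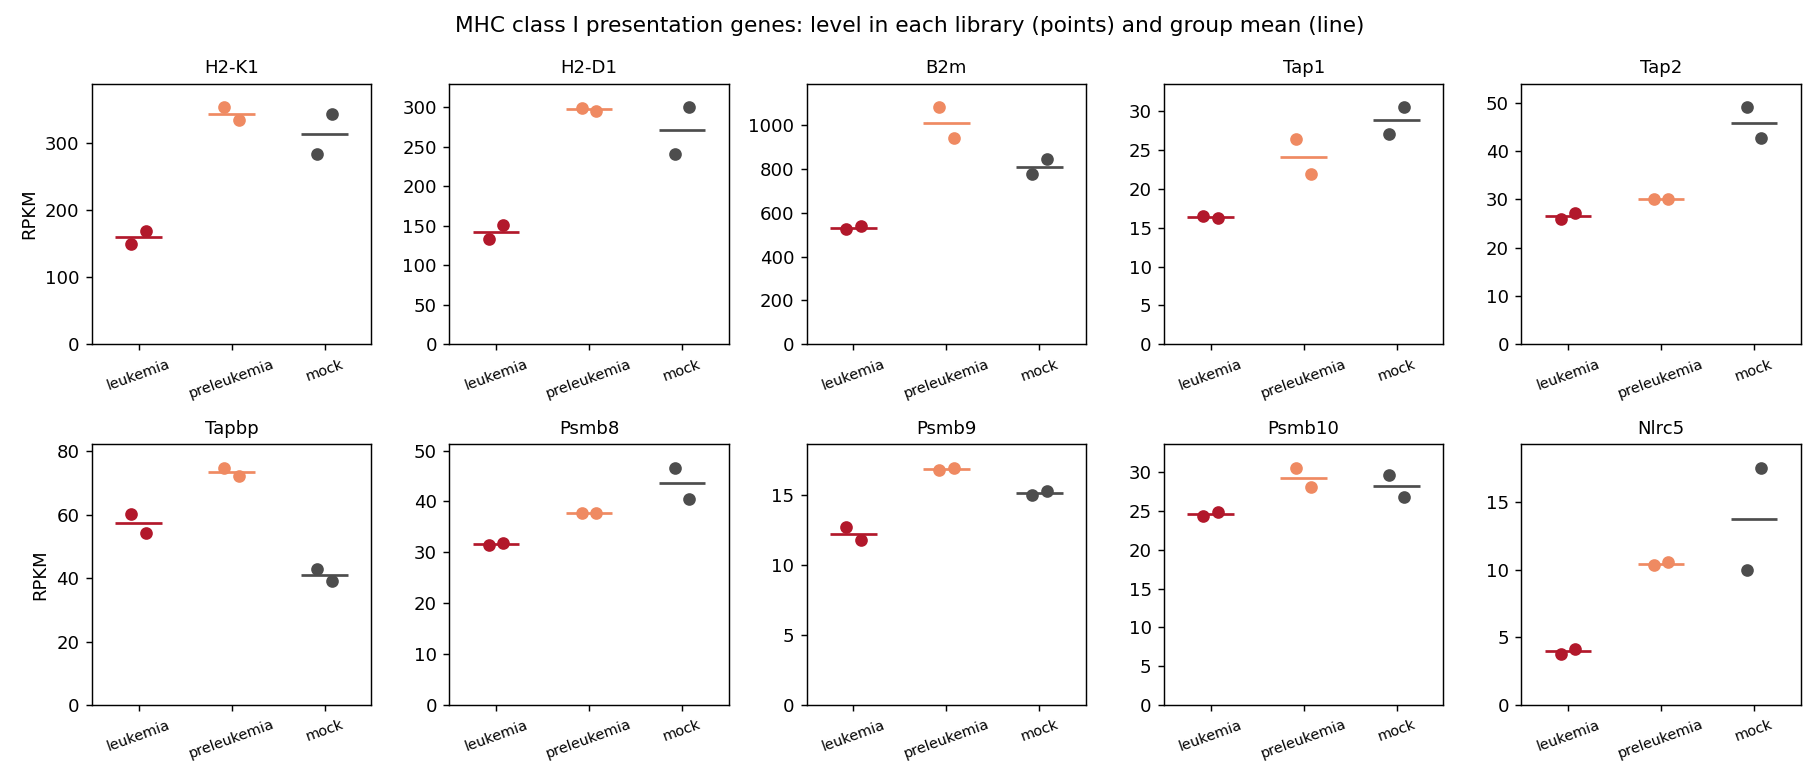
RPKM of each of the 10 genes (vertical axes, from 0) in leukemia, preleukemia and mock libraries. Points are libraries and lines are means of 2; the leukemia points of H2-K1, H2-D1, B2m and Nlrc5 lie far below all others, and those of Tapbp lie between preleukemia and mock.

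Both classical heavy chain genes were lower in leukemia than in preleukemia or mock, while the preleukemia and mock libraries overlapped. H2-K1 had 150.2 and 169 RPKM in leukemia libraries and 354 and 335 in preleukemia libraries, against 284 and 344 in mock libraries. Both leukemia libraries stood well below the other 4, and the preleukemia libraries lay in or near the mock range. Mean levels of H2-K1 were 159.5 ± 13.1 RPKM in leukemia, 344 ± 13.5 in preleukemia and 314 ± 42.3 in mock (SD, n = 2 each). H2-K1 fell by 0.97 on the log2 scale in leukemia against mock (SE 0.13, limma adjusted p = 0.00321) and by 1.11 against preleukemia (adjusted p = 0.00336). In preleukemia against mock the log2 fold change was 0.14 (95% interval -0.17 to 0.44, adjusted p = 0.481). H2-K1 lies on chromosome 17 at 33996017 to 34000347 (minus strand, ENSMUSG00000061232.16), in GRCm38 coordinates, as for all genes here.

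H2-D1, on chromosome 17 at 35262730 to 35267499 (plus strand, ENSMUSG00000073411.11), had nearly the same profile, with 134 and 151 RPKM in leukemia libraries and 299.6 and 296 in preleukemia libraries, against 242 and 300.2 in mock libraries. Leukemia again lay below all other libraries. H2-D1 fell by 0.92 in leukemia against mock (SE 0.13, limma adjusted p = 0.00422) and by 1.06 against preleukemia (adjusted p = 0.00412). The preleukemia value against mock was 0.14 (95% interval -0.17 to 0.46, adjusted p = 0.467). The ratio of H2-K1 to H2-D1 within a library was 1.12 and 1.12 in leukemia and 1.18 and 1.13 in preleukemia, against 1.18 and 1.15 in mock. The 2 genes thus kept nearly the same proportion to each other in all 6 libraries. They are related in sequence: 8.79% of the stretches of 50 bases in the H2-K1 transcript and 14.3% of those in H2-D1 also occur in a transcript of another gene, so some reads may be shared.

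B2m was the most abundant of the 10 in every library, and it fell in leukemia as well. The gene lies on chromosome 2 at 122147686 to 122153083 (plus strand, ENSMUSG00000060802.8) and had 527 and 539 RPKM in leukemia libraries and 1082 and 940.1 in preleukemia libraries, against 777 and 845 in mock libraries. The 3 groups did not overlap, with preleukemia highest and leukemia lowest. B2m fell by 0.60 in leukemia against mock (SE 0.12, limma adjusted p = 0.0135) and by 0.92 against preleukemia (adjusted p = 0.00474). Preleukemia against mock gave 0.31 (95% interval 0.03 to 0.60, adjusted p = 0.112). The call against mock was lost without leukemia library 1 (adjusted p = 0.0801) or leukemia library 2 (adjusted p = 0.0731), and with no filter on low values both leukemia calls were lost (adjusted p = 0.106 against mock and 0.0558 against preleukemia). The ratio of B2m to the sum of H2-K1 and H2-D1 was 1.85 and 1.69 in leukemia and 1.66 and 1.49 in preleukemia, against 1.48 and 1.31 in mock. Leukemia libraries lay above mock in this ratio, and so did preleukemia libraries, 1 of them narrowly. The ratio leaves out heavy chain genes other than H2-K1 and H2-D1. Ratios within libraries are given without a test, since 2 libraries against 2 cannot go below an exact permutation p of 0.333.

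Nlrc5 had the largest fold change of the 10 in leukemia. It lies on chromosome 8 at 94434356 to 94527272 (plus strand, ENSMUSG00000074151.13) and had 3.80 and 4.13 RPKM in leukemia libraries and 10.3 and 10.6 in preleukemia libraries, against 9.98 and 17.5 in mock libraries. All 4 other libraries were above leukemia, and the mock libraries lay on either side of preleukemia. Nlrc5 fell by 1.52 in leukemia against mock (SE 0.23, limma adjusted p = 0.00534) and by 1.21 against preleukemia (adjusted p = 0.0161). The call against preleukemia was lost without leukemia library 1 (adjusted p = 0.103), leukemia library 2 (0.0662), preleukemia library 1 (0.0885) or preleukemia library 2 (0.112), and with no filter (0.062). Against mock, preleukemia Nlrc5 was at -0.32 (95% interval -0.87 to 0.24, adjusted p = 0.368), and the mock libraries decided this value. It was -0.69 without mock library 1 (adjusted p = 0.00698) and 0.06 without mock library 2 (adjusted p = 0.731). Ciita, the related activator of class II genes, was under 0.4 RPKM in every library and was not tested.

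Both transporter subunits fell in leukemia against mock, and Tap2 also passed the test in preleukemia; the difference between the subunits was not tested. Tap2, on chromosome 17 at 34203527 to 34216321 (plus strand, ENSMUSG00000024339.12), had 26.0 and 27.2 RPKM in leukemia libraries and 30.1 and 30.0 in preleukemia libraries, against 49.1 and 42.6 in mock libraries. All 4 Evi1 libraries were below mock. Tap2 fell by 0.76 in leukemia against mock (SE 0.10, limma adjusted p = 0.00361) and by 0.59 in preleukemia against mock (adjusted p = 0.0112). The preleukemia call was lost without preleukemia library 1 (adjusted p = 0.082) or 2 (adjusted p = 0.101). Between leukemia and preleukemia the value was -0.17 (95% interval -0.41 to 0.08, adjusted p = 0.304).

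Tap1, on chromosome 17 at 34187553 to 34197225 (plus strand, ENSMUSG00000037321.17), had 16.5 and 16.2 RPKM in leukemia libraries and 26.4 and 21.9 in preleukemia libraries, against 27.1 and 30.5 in mock libraries. Leukemia was lowest, and preleukemia lay close below mock. Tap1 fell by 0.78 in leukemia against mock (SE 0.12, limma adjusted p = 0.00614) and by 0.53 against preleukemia (adjusted p = 0.0292). The call against preleukemia was lost without leukemia library 1 (adjusted p = 0.151), leukemia library 2 (0.144), preleukemia library 1 (0.186) or preleukemia library 2 (0.079). It was also lost with TMM-like scaling (0.0613), under quantile normalization (0.0662) and with no filter (0.0642). Tap1 in preleukemia against mock was at -0.25 (95% interval -0.54 to 0.04, adjusted p = 0.194). The ratio of Tap1 to Tap2 was 0.636 and 0.596 in leukemia and 0.880 and 0.730 in preleukemia, against 0.553 and 0.716 in mock. This ratio was highest in preleukemia, and the mock values spanned those of leukemia.

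Tapbp, which holds the loading complex together, was the 1 member that rose. It lies on chromosome 17 at 33915899 to 33929292 (plus strand, ENSMUSG00000024308.15) and had 60.2 and 54.4 RPKM in leukemia libraries and 74.7 and 72.1 in preleukemia libraries, against 42.8 and 39.1 in mock libraries. No 2 groups overlapped, and preleukemia was highest. Tapbp rose by 0.83 in preleukemia against mock (SE 0.10, limma adjusted p = 0.00353) and by 0.48 in leukemia against mock (adjusted p = 0.0167). The leukemia call was lost without leukemia library 1 (adjusted p = 0.121) or 2 (adjusted p = 0.0628). Between leukemia and preleukemia it was at -0.35 (95% interval -0.59 to -0.11, adjusted p = 0.0535), and this value passed without mock library 1 (adjusted p = 0.0243) or 2 (adjusted p = 0.0241). The ratio of Tapbp to Tap1 was 3.64 and 3.35 in leukemia and 2.83 and 3.29 in preleukemia, against 1.58 and 1.28 in mock. Both Evi1 groups thus stood clear of mock in this ratio. Of the exon bases of Tapbp 24.9% overlap Gm19412 on the opposite strand. The kit name gives no sign of strand marking, in which case reads of the pair cannot be told apart.

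Immunoproteasome subunits had smaller fold changes in leukemia than the heavy chain genes. Psmb8, which takes the place of Psmb5, lies on chromosome 17 at 34197721 to 34201454 (plus strand, ENSMUSG00000024338.15) and had 31.4 and 31.8 RPKM in leukemia libraries and 37.8 and 37.7 in preleukemia libraries, against 46.6 and 40.5 in mock libraries. The groups followed each other from leukemia up to mock without overlap. Psmb8 fell by 0.45 in leukemia against mock (SE 0.10, limma adjusted p = 0.0211). The call was lost without leukemia library 1 (adjusted p = 0.118) or 2 (0.118), without preleukemia library 1 (0.0572) or 2 (0.0571), and in a fit of the 4 libraries compared (0.0558). It was at -0.25 (95% interval -0.49 to -0.01, adjusted p = 0.139) in leukemia against preleukemia, which passed without mock library 1 (0.0383) or 2 (0.0382). Psmb8 in preleukemia against mock was at -0.20 (95% interval -0.44 to 0.04, adjusted p = 0.207).

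Psmb9, which takes the place of Psmb6, lies on chromosome 17 at 34181987 to 34187764 (minus strand, ENSMUSG00000096727.3) and had 12.7 and 11.7 RPKM in leukemia libraries and 16.7 and 16.9 in preleukemia libraries, against 15.0 and 15.3 in mock libraries. Leukemia was lowest and preleukemia highest, by small margins. Psmb9 fell by 0.43 in leukemia against preleukemia (SE 0.10, limma adjusted p = 0.0265). That call was lost without leukemia library 1 (adjusted p = 0.128), leukemia library 2 (0.179), preleukemia library 1 (0.148) or preleukemia library 2 (0.182), with TMM-like scaling (0.0702) and under quantile normalization (0.0613). Against mock it was at -0.29 (95% interval -0.52 to -0.06, adjusted p = 0.0715) in leukemia and 0.14 (95% interval -0.09 to 0.38, adjusted p = 0.328) in preleukemia.

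Psmb10, which takes the place of Psmb7, lies on chromosome 8 at 105935735 to 105938444 (minus strand, ENSMUSG00000031897.9) and had 24.4 and 24.9 RPKM in leukemia libraries and 30.5 and 28.1 in preleukemia libraries, against 29.7 and 26.8 in mock libraries. The leukemia libraries were lowest, but no comparison passed. The log2 fold change was -0.19 (95% interval -0.43 to 0.05, adjusted p = 0.214) in leukemia against mock, -0.24 (95% interval -0.48 to 0.00, adjusted p = 0.148) in leukemia against preleukemia and 0.05 (95% interval -0.19 to 0.29, adjusted p = 0.736) in preleukemia against mock. The last of these values was negative after TMM-like scaling (-0.02) and quantile normalization (-0.02). Psmb9, Tap1, Psmb8 and Tap2 lie next to each other within 34.3 kb of chromosome 17. Exons of Psmb9 and Tap1 share 212 bases on opposite strands, and Psmb10 is the subunit encoded outside this cluster.

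**Figure D2:**
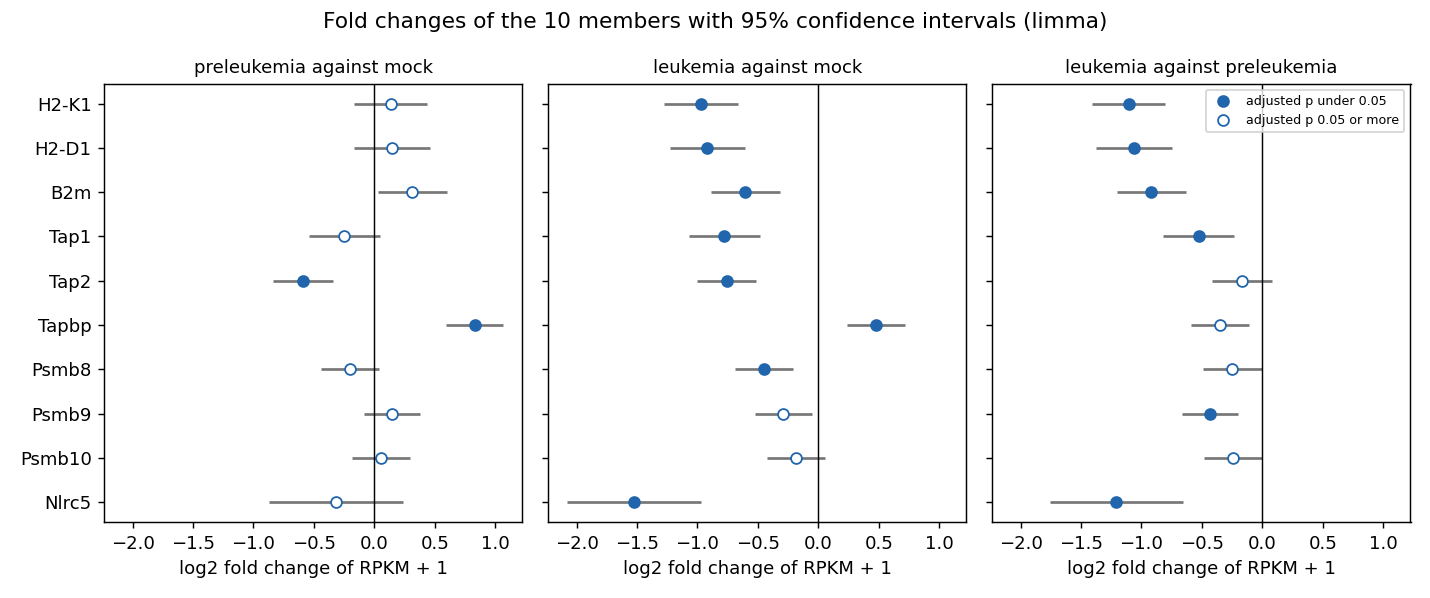
Log2 fold change of RPKM + 1 for each of the 10 genes (rows) in the 3 comparisons (panels), with 95% confidence intervals from limma; filled points had an adjusted p under 0.05. H2-K1, H2-D1, B2m, Tap1 and Nlrc5 have filled points left of 0 in both leukemia panels, and Tapbp has filled points right of 0 in both panels against mock.

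In leukemia against mock 7 of the 10 members fell and 1 rose, where 13.5% of all tested genes fell and 12.1% rose (25.6% in either direction). In leukemia against preleukemia 6 fell, where 13.0% of all genes fell and 5.27% rose (18.3% in either direction). The log2 fold changes of all 10 were below 0 there, as were those of 6750 of the 10958 tested genes. In preleukemia against mock 1 rose (Tapbp) and 1 fell (Tap2), where 13.5% of all genes rose and 6.02% fell (19.5% in either direction), which is close to the background. The median log2 fold change of the members, beside that of all tested genes, was -0.68 beside -0.04 in leukemia against mock. It was -0.48 beside -0.09 in leukemia against preleukemia, and 0.09 beside 0.05 in preleukemia against mock.

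The counts moved with single libraries and with scaling, and so did the number of all genes called. The shares of all genes in this text are from the fit of all 6 libraries. Counts with a library left out have no such share beside them. In leukemia against preleukemia 3 members fell (H2-K1, H2-D1 and B2m) without any 1 of the 4 Evi1 libraries, and 8 fell without either mock library. TMM-like scaling and quantile normalization moved the median of all genes in that comparison by 0.11 and 0.12, the members' median was then -0.36 and -0.36, and 4 members fell. Of all genes called there, 28.8% were higher in leukemia as deposited, 46.5% with TMM-like scaling and 50.8% after quantile normalization. The corresponding share in preleukemia against mock was 69.2%, 58.0% and 52.9%. Each comparison shares libraries with the others, so their counts are not independent. The members were chosen with earlier results of these data known, so their counts beside the shares of all genes are a description.

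Nonclassical class I genes included larger falls than any member. Of 27 listed, 24 had a row and 13 were tested. In leukemia against mock 5 fell and 1 rose, beside 13.5% and 12.1% of all genes. In leukemia against preleukemia 4 fell and 1 rose, beside 13.0% and 5.27%. In preleukemia against mock 1 fell and 1 rose, beside 6.02% and 13.5%. H2-Q7, a gene of the Qa-2 antigen, had 5.89 and 10.7 RPKM in leukemia libraries and 46.5 and 42.4 in preleukemia libraries, against 32.6 and 58.4 in mock libraries. Its leukemia libraries lay far below all others. H2-Q7 fell by 2.31 against mock (limma adjusted p = 0.00386) and by 2.34 against preleukemia (adjusted p = 0.00563). H2-Q6 had 17.9 and 26.5 RPKM in leukemia libraries and 91.2 and 85.2 in preleukemia libraries, against 68.7 and 177 in mock libraries, and it fell by 2.29 against mock (adjusted p = 0.00931). H2-Q4 had 21.4 and 25.8 RPKM in leukemia libraries and 53.1 and 54.3 in preleukemia libraries, against 51.1 and 83.5 in mock libraries, and it fell by 1.44 against mock (adjusted p = 0.00553). Both also fell in leukemia against preleukemia, with -1.97 for H2-Q6 and -1.16 for H2-Q4.

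H2-T23 encodes Qa-1, which shows leader peptides of other class I chains to natural killer cells, and it went the other way. It had 14.1 and 13.2 RPKM in leukemia libraries and 11.6 and 11.7 in preleukemia libraries, against 8.58 and 8.99 in mock libraries. The 3 groups did not overlap, with leukemia highest. H2-T23 rose by 0.58 in leukemia against mock (limma adjusted p = 0.0086) and by 0.37 in preleukemia against mock (adjusted p = 0.0461). The leukemia call of H2-T23 was lost without either leukemia library, and the preleukemia call without any 1 of the 4 Evi1 libraries and after either rescaling. H2-M3, which presents formylated peptides, fell by 0.78 in leukemia against preleukemia (adjusted p = 0.0145). H2-T22 had 10.7 and 11.4 RPKM in leukemia libraries and 13.4 and 14.1 in preleukemia libraries, against 11.6 and 13.2 in mock libraries, and passed in no comparison. Stretches of 50 bases found in another gene made up 24.3% of H2-Q4, 32% of H2-Q6, 34.9% of H2-Q7, 44.7% of H2-T22 and 28.8% of H2-T23, so the level of each is uncertain. The 5 falls against mock became 2 without leukemia library 1. The 4 against preleukemia became 1 and 2 without leukemia library 1 and 2, 1 without either preleukemia library and 7 without either mock library. In preleukemia against mock the 1 fall became 4 without mock library 1 and 0 without any 1 of the Evi1 libraries. The 1 rise against preleukemia was also lost without any 1 of these, and without mock library 1, 2 genes rose in leukemia and 2 in preleukemia against mock.

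Of 7 partners in peptide loading 3 fell in leukemia against preleukemia, beside 13.0% of all genes. In leukemia against mock 1 fell and 1 rose, beside 13.5% and 12.1%. Limma called 0 in preleukemia against mock, with 4 higher and 0 lower at an unadjusted p under 0.05 and 0 called by voom. The share of all genes at that unadjusted threshold was not computed, so the 4 cannot be set against a background. Pdia3, the oxidoreductase bound to tapasin, had 103 and 96.9 RPKM in leukemia libraries and 177 and 165 in preleukemia libraries, against 157 and 131 in mock libraries. It was lowest in leukemia, and it fell by 0.77 against preleukemia (limma adjusted p = 0.00816) and by 0.52 against mock (adjusted p = 0.0219). Tapbpl, a relative of Tapbp that edits peptides outside the loading complex, had 2.75 and 2.32 RPKM in leukemia libraries and 4.85 and 4.07 in preleukemia libraries, against 2.73 and 2.97 in mock libraries. It fell by 0.63 against preleukemia (adjusted p = 0.028). Uggt1, a glycoprotein folding sensor, also fell by 0.56 against preleukemia (adjusted p = 0.00888). Erap1, which trims peptides in the endoplasmic reticulum, rose by 0.45 in leukemia against mock (adjusted p = 0.0446). Each of the 3 calls against preleukemia was lost without any 1 of the 4 Evi1 libraries. The 2 calls against mock were lost without either leukemia library, and that of Erap1 also without either preleukemia library or mock library 2. Without mock library 1, 3 genes of this list rose in preleukemia, and 2 fell and 2 rose in leukemia, each against mock. Without mock library 2, 3 fell in leukemia against mock.

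The constitutive proteasome core was set beside its immune counterparts. Of 14 genes 4 fell in leukemia against mock and 3 in leukemia against preleukemia, beside 13.5% and 13.0% of all genes. In preleukemia against mock 1, Psmb5, rose, beside 13.5%. The list medians were -0.26, -0.31 and 0.00. Psmb5 had 49.4 and 41.3 RPKM in leukemia libraries and 67.3 and 69.7 in preleukemia libraries, against 51.6 and 44.3 in mock libraries, and it rose by 0.51 in preleukemia against mock (limma adjusted p = 0.0334). The ratio of Psmb8 to Psmb5 was 0.636 and 0.770 in leukemia and 0.561 and 0.541 in preleukemia, against 0.902 and 0.915 in mock. Both Evi1 groups were below mock in this ratio. That of Psmb9 to Psmb6 was 0.521 and 0.549 in leukemia and 0.720 and 0.643 in preleukemia, against 0.547 and 0.573 in mock. That of Psmb10 to Psmb7 was 0.694 and 0.755 in leukemia and 0.733 and 0.670 in preleukemia, against 0.640 and 0.620 in mock. These ratios did not show the Psmb8 pattern: the first was highest in preleukemia and the second was lowest in mock. Psmb6 passed in no comparison, and Psmb7 fell by 0.38 in leukemia against mock (adjusted p = 0.0256). The 4 falls against mock became 0 without either leukemia library and 1 without either preleukemia library. The 3 against preleukemia became 0 without any 1 of the Evi1 libraries and 6 without either mock library, and 1 after either rescaling. The call of Psmb5 against mock was lost without either preleukemia library or mock library 2.

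Among 9 proteasome activator, assembly and cytosolic peptidase genes 1 fell in each comparison, which is close to the background. Of all tested genes 13.5% fell in leukemia against mock, 13.0% in leukemia against preleukemia and 6.02% in preleukemia against mock. Pomp, the chaperone that assembles proteasomes, had 47.0 and 45.4 RPKM in leukemia libraries and 65.4 and 54.6 in preleukemia libraries, against 90.4 and 81.0 in mock libraries. It was lowest in leukemia and highest in mock. Pomp fell by 0.88 in leukemia against mock (limma adjusted p = 0.00354) and by 0.51 in preleukemia against mock (adjusted p = 0.0277). The preleukemia call was lost without any 1 of the 4 Evi1 libraries. Npepps, a cytosolic aminopeptidase, fell by 0.45 in leukemia against preleukemia (adjusted p = 0.0387), which was lost without any 1 of the Evi1 libraries and after either rescaling. Without mock library 1 the falls were 2 in preleukemia and 2 in leukemia against mock, and 3 in leukemia against preleukemia, and 2 genes rose in preleukemia against mock. Without mock library 2, 2 fell in leukemia against mock and 3 against preleukemia. After either rescaling 1 rose in leukemia against mock.

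**Figure D3:**
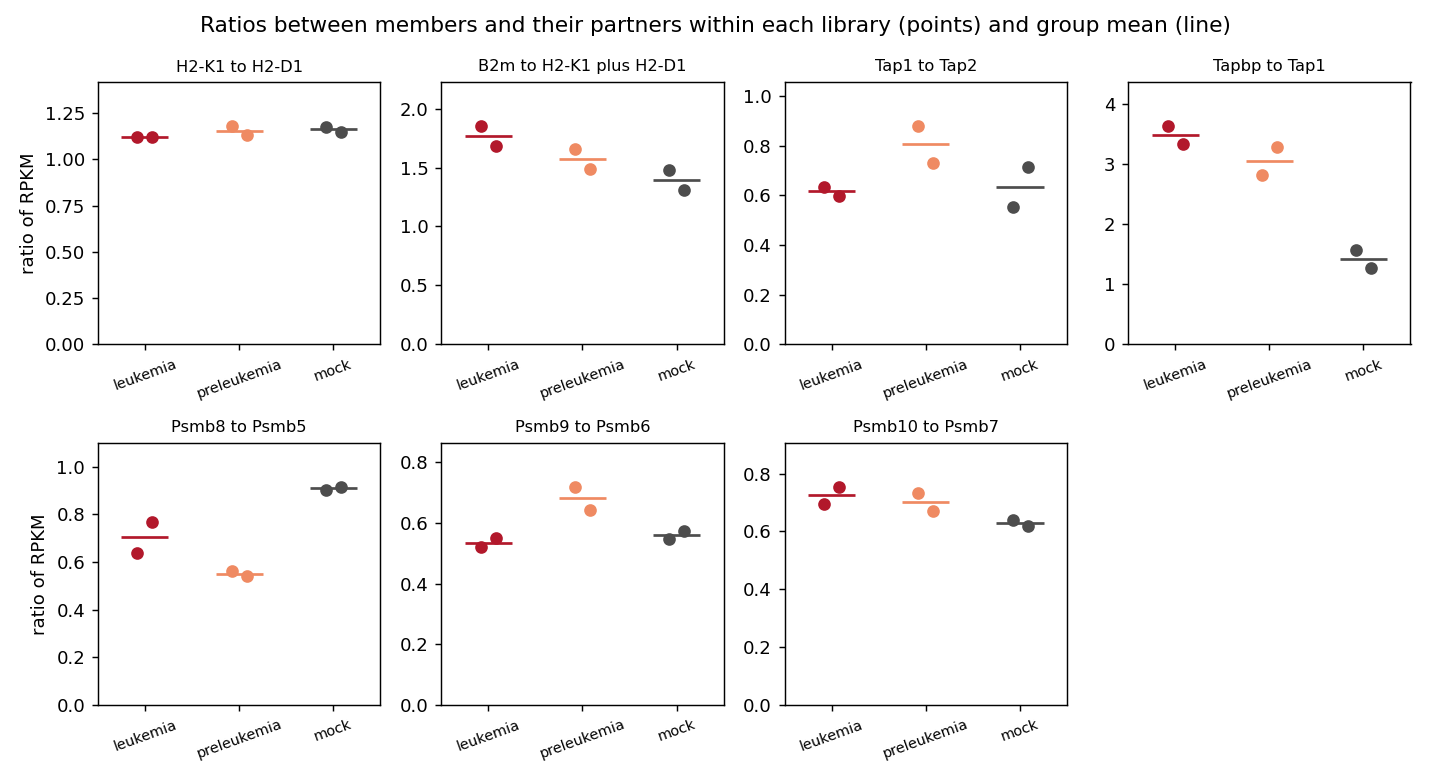
Ratio of the RPKM of a gene to that of its partner within each library (vertical axes, from 0) for leukemia, preleukemia and mock; points are libraries and lines are means of 2. Tapbp to Tap1 is at least 2.83 in all Evi1 libraries and at most 1.58 in mock, and Psmb8 to Psmb5 is highest in mock.

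Transcription factors that act on class I promoters had more rises than falls against mock in the fit of all 6 libraries. In preleukemia against mock, all tested genes did as well. Of 16 regulators 5 rose and 1 fell in leukemia against mock, beside 12.1% and 13.5% of all genes. In leukemia against preleukemia 1 rose and 1 fell, beside 5.27% and 13.0%. In preleukemia against mock 5 rose and limma called 0 lower, beside 13.5% and 6.02%. There 2 were lower at an unadjusted p under 0.05, for which the share of all genes was not computed, and 1 by voom. Rfx5, which binds the X element, had 14.7 and 13.6 RPKM in leukemia libraries and 12.2 and 10.8 in preleukemia libraries, against 7.92 and 6.80 in mock libraries. No groups overlapped, and leukemia was highest. Rfx5 rose by 0.86 in leukemia against mock (limma adjusted p = 0.00423) and by 0.58 in preleukemia against mock (adjusted p = 0.0213). Irf1, an activator of Tap1 and Psmb9, had 18.0 and 14.9 RPKM in leukemia libraries and 16.4 and 16.6 in preleukemia libraries, against 16.5 and 42.8 in mock libraries. The mock libraries of Irf1 stood far apart, and no comparison passed. The 5 rises in leukemia against mock became 1 without any 1 of the Evi1 libraries and 3 without mock library 2. Those in preleukemia became 2 without either leukemia library, 0 without either preleukemia library and 3 after quantile normalization. Without mock library 1 the falls against mock were 3 in preleukemia and 3 in leukemia, and the leukemia fall was lost without either leukemia library. Against preleukemia neither call held without any 1 of the Evi1 libraries. Without either mock library 2 rose and 3 fell there, and 3 rose after either rescaling.

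Of 9 genes of interferon receptors and their proximal signalling 2 rose and 2 fell in leukemia against mock, beside 12.1% and 13.5% of all genes. In leukemia against preleukemia 1 rose and 2 fell, beside 5.27% and 13.0%. In preleukemia against mock 1 rose, beside 13.5%. Tyk2, a kinase of the type I interferon receptor, was the 1 gene called in preleukemia against mock, where it was higher, and this call was lost after either rescaling and without any 1 library except mock library 1. Ifngr1, the ligand-binding chain of the interferon gamma receptor, had 28.2 and 39.0 RPKM in leukemia libraries and 69.9 and 66.0 in preleukemia libraries, against 75.0 and 56.9 in mock libraries. Its leukemia libraries lay below all others. Ifngr1 fell by 0.96 against mock (limma adjusted p = 0.0125) and by 1.01 against preleukemia (adjusted p = 0.0139). The kinase gene Jak2 fell by 0.43 (adjusted p = 0.0239) and Jak1 rose by 0.56 (adjusted p = 0.00672) in leukemia against mock. Without leukemia library 1 none of these 9 genes was called against mock, and without leukemia library 2 or either preleukemia library fewer were (1 or 2 in all). Against preleukemia at most 1 was called without any 1 of the Evi1 libraries, and after either rescaling 1 fell.

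Interferon-stimulated genes outside the pathway were mostly highest in preleukemia. Of 24 tested, 17 rose in preleukemia against mock, beside 13.5% of all genes. There 0 were lower by limma, at an unadjusted p under 0.05 or by voom. In leukemia against mock 4 rose and 2 fell, beside 12.1% and 13.5%, which is close to the background. In leukemia against preleukemia 1 rose and 16 fell, beside 5.27% and 13.0%. Oas2, an antiviral oligoadenylate synthetase, had 1.96 and 2.12 RPKM in leukemia libraries and 12.0 and 14.5 in preleukemia libraries, against 1.35 and 0.989 in mock libraries. Its preleukemia libraries stood far above the rest, whereas those of H2-K1 lay in or near the mock range. Without preleukemia library 1 and 2 the 17 rises became 7 and 6. The 16 falls became 9 and 10 without leukemia library 1 and 2, and 7 and 8 without preleukemia library 1 and 2. The 1 rise there was lost without leukemia library 1 or preleukemia library 2. In leukemia against mock the 4 rises became 1 without leukemia library 1 and 2 without leukemia library 2, either preleukemia library or mock library 2. The 2 falls became 0 without either leukemia library and 1 without either preleukemia library. Among interferon-inducible GTPase genes 10 of 16 were tested. Of these 3 rose in preleukemia against mock and 2 rose in leukemia against mock, beside 13.5% and 12.1% of all genes. In leukemia against preleukemia 2 fell and 1 (Gbp3) rose, beside 13.0% and 5.27%. Irgm2 rose by 1.36 in preleukemia (limma adjusted p = 0.00147) and by 0.67 in leukemia (adjusted p = 0.0119), each against mock. The 3 rises in preleukemia became 1 without either preleukemia library. Without either leukemia library no GTPase gene was called higher in leukemia against mock, and 1 was without either preleukemia library. Without mock library 1, 3 fell in leukemia and 1 in preleukemia against mock, and without mock library 2, 1 fell in leukemia. The 2 falls against preleukemia became 0 without any 1 of the Evi1 libraries and 5 and 4 without mock library 1 and 2, and the call of Gbp3 held without leukemia library 2 or either mock library and was lost without any of the other 3.

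Class II presentation genes included falls in preleukemia, where 4 of 10 tested were called lower than in mock, beside 6.02% of all genes. In leukemia 3 fell against mock and 1 against preleukemia, beside 13.5% and 13.0%. None rose in any comparison by limma, at an unadjusted p under 0.05 or by voom. H2-DMa, a subunit of the class II peptide loader, had 2.35 and 2.14 RPKM in leukemia libraries and 9.87 and 8.22 in preleukemia libraries, against 26.4 and 28.8 in mock libraries. The 3 groups did not overlap, with leukemia lowest. H2-DMa fell by 3.14 in leukemia against mock (limma adjusted p = 6.99e-05). The shares of all genes above hold for the fit of all 6 libraries, and not for the counts that follow. Without mock library 1 the falls against mock were 8 in preleukemia and 6 in leukemia, and without preleukemia library 1 the first count was 2. Against preleukemia 2 fell without either mock library.

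**Figure D4:**
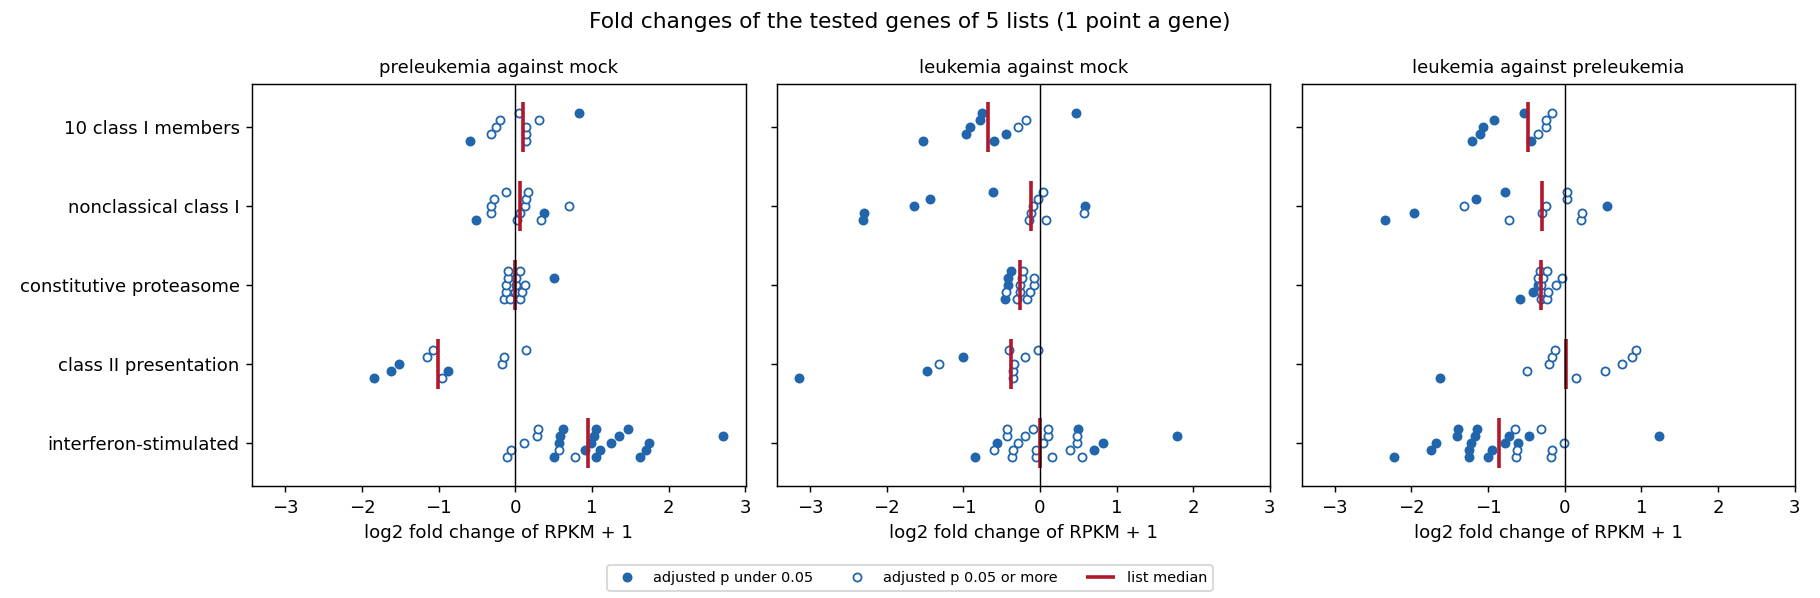
Log2 fold change of RPKM + 1 (horizontal axes) of the tested genes of 5 lists (rows) in the 3 comparisons (panels); each point is a gene, filled where the adjusted p was under 0.05, and the red line is the list median. The medians of the class I members are 0.09, -0.68 and -0.48 from left to right, and those of the interferon-stimulated genes 0.95, -0.01 and -0.86.

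In bulk samples fewer cells of a type and less RNA per cell cannot be told apart, and the sums of some marker lists moved with the class I genes. The summed level of 7 monocyte and macrophage markers was 81.6 to 108 RPKM in leukemia and 308 to 343 in preleukemia, against 328 to 458 in mock. Most of this sum outside leukemia was Ly6c2, and C1qa, Ms4a7 and Fcgr1 stayed under 1 RPKM in every library. The 4 tested markers of this list did not all follow the sum. In leukemia against mock 2 were called lower and 1 higher, beside 13.5% and 12.1% of all tested genes. In leukemia against preleukemia 1 was called lower and 1 higher, beside 13.0% and 5.27%. There 3 had log2 fold changes above 0, beside 4208 of the 10958 tested genes, and the median of the 4 was 0.32. The sum of 9 T and NK cell markers was 9.86 to 16.99 RPKM in leukemia and 77.7 to 81.6 in preleukemia, against 69.6 to 102 in mock. It was mostly Nkg7 and Gzmb, and 5 of the 9 were under 1 RPKM in every library. The sum of 6 erythroid markers was 3.74 to 11.3 RPKM in leukemia and 108 to 177 in preleukemia, against 137 to 330.0 in mock. The sum of the 10 gate and progenitor markers, mostly Mpo and Elane of granule contents, was 1278 to 1363 RPKM in leukemia and 3073 to 3276 in preleukemia, against 2033 to 2785 in mock. These 4 sums were lowest in leukemia, as every member except Tapbp was, and their part in the result was not tested. The sum of 7 dendritic cell markers was 2.92 to 5.74 RPKM in leukemia and 4.70 to 4.91 in preleukemia, against 17.6 to 22.9 in mock, and that of 5 mast cell and basophil markers was 18.5 to 18.7 RPKM in leukemia and 23.03 to 25.9 in preleukemia, against 60.3 to 94.6 in mock. Both were low in all 4 Evi1 libraries, as Tap2 was, and their part was not tested. The sum of 8 neutrophil markers was 408 to 710.1 RPKM in leukemia and 3852 to 8258 in preleukemia, against 11.7 to 15.7 in mock. It was highest in preleukemia, as Tapbp was, and its part was not tested. The sums of 6 B cell markers (156 to 175 RPKM in leukemia and 93.6 to 98.1 in preleukemia, against 83.1 to 100.3 in mock) and of 7 endothelial and stromal markers (46.7 to 47.8 RPKM in leukemia and 22.9 to 30.0 in preleukemia, against 26.7 to 28.8 in mock) were highest in leukemia. The B cell sum was mostly Ighm, with Ms4a1 at 0 in both leukemia libraries, and the other was nearly all Pecam1, with the remaining 6 markers under 1 RPKM in every library. Of 4 tested B cell markers 2 were called higher and 2 lower in leukemia against mock, with a median log2 fold change of -0.90. In leukemia against preleukemia 1 was called higher, and the other 3 had values below 0 that did not pass. The B cell markers thus did not all follow their sum.

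Genes were ranked by how closely their centred log2(RPKM + 1) followed the mean profile of the 10 members over the 6 libraries, as a root mean square difference. The closest non-members were Vimp (0.0260), Ubxn2a (0.0426), Hdlbp (0.0516), Trappc10 (0.0523) and Prkag1 (0.0554). Vimp, which encodes a selenoprotein of the endoplasmic reticulum membrane, had 19.1 and 20.4 RPKM in leukemia libraries and 32.1 and 31.2 in preleukemia libraries, against 29.0 and 31.8 in mock libraries. Of the members Tap1 (0.129), Psmb9 (0.138) and B2m (0.142) lay nearest the mean profile, and Nlrc5 (0.427) and Tapbp (0.464) farthest. The ranking is a description of 6 libraries.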

How the data were processed

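RNA was measured in 6 libraries of sorted mouse marrow cells. Per the labels' protocols, RNA was extracted with Nucleospin RNA and the NEBNext Ultra RNA kit was used. The authors deposited 1 RPKM value per gene and library. The unit was inferred: multiplied by exon length (GENCODE M21, matched for 35433 rows) and a fitted total, 64.2% to 66.0% of values under 20 reads came within 0.02 of a whole number, against 4% by chance. Implied reads are approximate. CASAVA 1.8.2 and GRCm38 appear in the submitters' processing notes, without a role. Aligner and counter: not given in the sources used here.

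Genes with at least 1 RPKM in 2 of 6 libraries (10958) were tested with limma 3.58.1 in R 4.3.3 on log2(RPKM + 1), a scale that understates changes of low genes. The fit had 1 mean per group, a mean trend of the spread and no block (3 residual and 3.70 prior degrees of freedom), with two-sided tests and Benjamini-Hochberg adjustment over all genes. The procedure was tested on simulated data with the same spread in every group and with changes of 2-fold and 4-fold. The mock libraries here varied more than the others, and that test does not cover this difference or smaller changes. Members and lists were chosen with earlier results of these data known. The text names the members, set relatives of them and, of each other list, up to 4 called genes with the smallest p, though not all of these, and values of some listed genes are not reported here. Rfx5, Pomp, Oas2 and others fall under that rule, whereas Ly6c2, Nkg7, Gzmb, Ighm, Pecam1, Cd34, Hlf, Mpo and Elane were named after their values were seen. Alternatives were other pseudocounts, filters, scalings and variance settings, array weights, a fit of the 4 libraries compared, a replicate block, voom on implied reads, and each library left out; those for the gate and progenitor markers were chosen after seeing the data.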

Additional observations from a re-analysis of the deposited data

How the results depend on the processing

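Each of the 30 member fold changes was recomputed under 18 alternatives, giving 540 values, of which 490 kept direction and call, 31 lost and 11 gained a call, and 8 changed sign. H2-K1 and H2-D1 kept both in leukemia against mock and against preleukemia under all 18. All sign changes were in preleukemia against mock, among values that did not pass: H2-K1 (quantile normalization -0.0314, and -0.00108 without mock library 1), H2-D1 (-0.0113 without mock library 1), Psmb10 (TMM-like scaling -0.0177, quantile normalization -0.0184, -0.00429 without preleukemia library 1, -0.0176 without mock library 2) and Nlrc5 (0.0609 without mock library 2). With 1 library left out these ranged from -0.00108 to 0.27 for H2-K1, -0.0113 to 0.30 for H2-D1, -0.0176 to 0.12 for Psmb10 and -0.69 to 0.0609 for Nlrc5.

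In preleukemia against mock 2140 genes were called, 1421 with array weights, 1387 when fitted on its 4 libraries alone and 463 to 3766 with 1 library left out. In leukemia against mock 2809 were called, and 980 to 3697 with 1 left out. In leukemia against preleukemia 2006 were called, 1302 with no filter on low values, 3786 with array weights, 3419 in a fit of the 4 libraries and 404 to 3453 with 1 left out. The members called lower there were 6, 3 with no filter, 9 with array weights, 8 in the fit of the 4 libraries and 3 to 8 with 1 library left out. Against mock, members called with 1 library left out were 0 to 2 lower in preleukemia, and 0 to 1 higher and 5 to 7 lower in leukemia. The fit has 1 spread per gene for all 3 groups. In leukemia against preleukemia a mock library thus enters only through that spread and the set of tested genes. The members' median log2 fold change there was -0.48 with all 6 libraries and without either mock library. What else moved the counts was not tested. Where a group is left with 1 library, it is assumed to vary like the others.

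A replicate block called 2118, 2932 and 2060 genes, and of the members 1 higher and 1 lower, 1 higher and 7 lower, and 7 lower, in preleukemia against mock, leukemia against mock and leukemia against preleukemia. Deviations of libraries with the same number correlated at 0.18 (leukemia and preleukemia), 0.01 (leukemia and mock) and 0.12 (preleukemia and mock). The labels do not say what the numbers mark, and pairing was not assumed. The block gave Tapbp a call in leukemia against preleukemia (adjusted p = 0.0365). By implied reads Nlrc5 was lowest of the members in leukemia (677 and 689) and Psmb10 in preleukemia and mock (881 and 1036, against 1093 and 922). Intervals rest on 1 moderated spread per gene, shared by the 3 groups of 2 libraries, and not on the spread of the groups compared. Nlrc5 thus had an SE of 0.23 in each comparison, with SDs of 5.34 RPKM in mock, 0.17 in preleukemia and 0.23 in leukemia.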
